A study of Mus musculus with 4 samples.

Results

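The cells described here are CD8 T cells that carried the most transcript of 8 genes of late G2 and mitosis, and they are called high-score cells. They were chosen from the counts themselves. A cell passed if it had at least 500 genes, at least 1000 UMIs (unique molecular identifiers, 1 per captured transcript) and at most 10% mitochondrial UMIs. It also had to have fewer than 2 UMIs of Cd79a and Ms4a1 (B cell genes), fewer than 5 of Gzma and Gzmb (granzymes) and fewer than 5 of Hist1h1b (a replication-dependent linker histone). The score of a passing cell was the mean, over Ccnb2, Cenpe, Cdc20, Cenpf, Cenpa, Cdkn3, Hmmr and Cdca8, of the natural log of 1 plus the UMIs per 10000. The top 10% by score, pooled over libraries, were taken: 878 of 8782 passing cells, out of 11113 barcodes.

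The study profiled CD8 T cells from lymph nodes of C57BL/6 mice that drained a tumour, collected 14 days after the tumour was implanted and sorted on CD8, CD90.1 and CD44. Its title concerns progenitor exhausted CD8 T cells and their upkeep by T cell receptor (TCR) engagement. The M9 group is labelled with high affinity GP33 and came from 10 mice, and the C6M9 group with low affinity GP33 and came from 35; GP33 is a peptide of a viral glycoprotein that CD8 T cells can recognise. Each group has 2 libraries, described as biological duplicates and made from pooled mice with the 10x Genomics 3′ kit, and no untreated or tumour-free group was analysed here. All mice carried a tumour, and no further allele, transfer or agent is given in the labels. Cells are not tied to single mice in the labels, and the library served as the unit of replication.

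Cells enter mitosis when cyclin B and its kinase CDK1 become active, after replication of the DNA is complete. The kinases Aurora and Polo-like kinase 1 then help build the spindle, kinetochore proteins attach chromosomes to it, and the anaphase-promoting complex with its activator CDC20 destroys cyclin B and lets sister chromatids part. Activated CD8 T cells divide quickly, and in chronic stimulation a TCF1-positive progenitor pool is known for retaining the capacity to divide.

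The 8 score genes act at successive steps of that programme. Ccnb2 encodes a B-type cyclin, Cdkn3 a phosphatase that acts on cyclin-dependent kinases, Cenpa the centromeric histone H3 variant, Cenpe a kinetochore motor and Cenpf a kinetochore-associated protein. Cdca8 encodes borealin of the chromosomal passenger complex, Hmmr a spindle-associated protein and Cdc20 the activator named above. The promoters of 4 of them are printed, from 100 bases before to 25 bases after the annotated start, because genes of this phase are known for a shared element, the cell cycle genes homology region (CHR), with CCAAT boxes before it. The sequences are from RefSeq on GRCm38.p6, written 5′ to 3′ on the gene's strand, and capitals mark the 2 motifs. CHR was searched as TTTGAA, which reads TTCAAA in the opposite orientation. A variant with a central CG, written TTCGAA and the same on both strands, was included in the CHR search. The box CCAAT appears as ATTGG when it lies on the opposite strand. Ccnb2 is on the minus strand at chr9:70421530-70421654, Cenpe on the plus strand at chr3:135212463-135212587, Cdc20 on the minus strand at chr4:118437319-118437443 and Cdca8 on the minus strand at chr4:124936893-124937017.
Ccnb2: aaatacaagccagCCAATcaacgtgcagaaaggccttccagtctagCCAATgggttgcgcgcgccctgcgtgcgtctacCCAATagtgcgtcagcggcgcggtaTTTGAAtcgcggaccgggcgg
Cenpe: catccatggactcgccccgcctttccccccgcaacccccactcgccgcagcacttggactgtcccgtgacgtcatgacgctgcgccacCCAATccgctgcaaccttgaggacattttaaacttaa
Cdc20: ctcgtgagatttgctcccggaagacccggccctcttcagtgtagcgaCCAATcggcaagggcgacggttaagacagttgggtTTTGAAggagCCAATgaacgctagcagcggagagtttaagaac
Cdca8: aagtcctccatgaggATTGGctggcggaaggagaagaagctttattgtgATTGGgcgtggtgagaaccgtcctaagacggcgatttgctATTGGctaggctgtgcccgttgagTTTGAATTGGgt

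Ccnb2, Cdc20 and Cdca8 each held a CHR match close to the start, and Cenpe held a CCAAT match and no CHR match in these letters. In Cdca8 the CHR and an ATTGG overlap. The motifs were searched on both strands in windows of 300 bases, from 250 before to 50 after the start. All 8 score genes matched the RefSeq table: 7 of their 8 promoters held a CHR match and 8 held a CCAAT match. A CHR match together with at least 2 CCAAT matches stood in 7 of the 8 (87.5%), against 2.31% of 32851 promoters in the table. Any CHR match stood in 19.2% and any CCAAT match in 37.4% of them. Of 158 genes in 7 lists of mitotic functions, the score genes among them, 128 matched, and 26.4% of their 144 promoters held that combination. The tubulin and the nuclear envelope lists were not part of this set. Of 13 genes outside the score among the 20 highest ratios to remaining cells, 9 matched, and 4 of their 10 promoters (40%) held the combination. Among the 10 genes with the lowest level in high-score relative to remaining cells, 9 promoters were found. A CHR match stood in 3 of these (33.3%) and the combination in 0. For so few promoters a count of 0 is near the share over all promoters and is not a result about them. A match describes letters and not a bound site.

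Cells became rapidly fewer up to about the score limit and then thinned out slowly, with no gap. It was 0 in 3284 of the passing cells (37.4%), and its median was 0.0556 in the 7904 remaining cells and 0.905 in the high-score cells. The lowest high-score cell stood at 0.3129 and the highest remaining cell at 0.3126, and 88 high-score and 258 remaining cells lay within 0.1 of that limit. The 20 cells just inside and the 20 just outside both had UMIs of a median of 3 score genes, with median depths of 20801 and 17226 UMIs. High-score cells had UMIs of a median of 7 of the 8 genes, 403 had all 8, and 10 had no more than 2. These values describe the choice and were not tested.

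**Figure D1:**
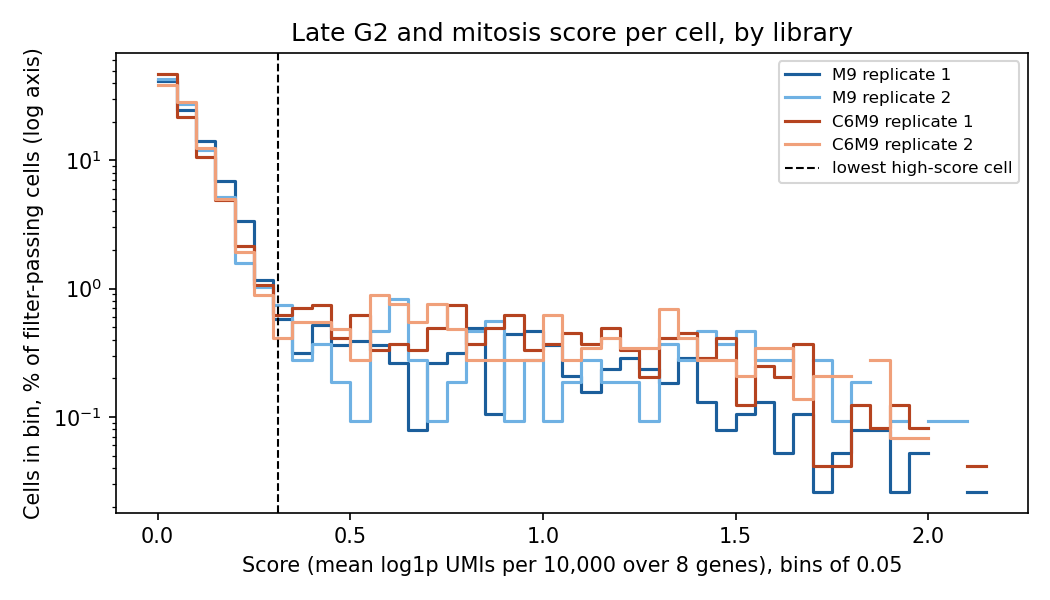
Share of passing cells per bin (y axis, percent, log scale) by score (x axis, mean natural log of 1 plus UMIs per 10000 over 8 genes), 1 line per library, with a dashed line at the lowest high-score cell. In each library the share falls steeply up to the limit of 0.313 and then runs on as a long low tail, with no gap at the limit.

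The filters removed more cells above the score limit than they left. Of the 10324 cells that passed on genes, UMIs and mitochondrial share, 2091 (20.3%) lay above the score limit, and 1213 of these were removed by at least 1 of the 3 gene filters. The Hist1h1b filter failed 1239 cells, of which 1072 (86.5%) lay above the limit. The granzyme filter failed 421, of which 356 (84.6%) did, and the B cell filter failed 150, of which 34 (22.7%) did. Removal differed between libraries. Of cells above the limit, the 3 filters removed 362 of 659 and 111 of 212 in M9. In C6M9 they removed 475 of 772 and 265 of 448. The granzyme filter failed 107 and 15 cells above the limit in M9 and 154 and 80 in C6M9. High-score cells of the groups were thus what unequal removals left. Cells that failed on Hist1h1b alone numbered 988, and they are called histone-high cells and used as the nearest comparison.

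There were 297 and 101 high-score cells in the M9 libraries and 297 and 183 in the C6M9 libraries, whose UMIs summed to 3.21 to 8.80 M per library (M, 1000000). Whole libraries held 33.7 to 79.2 M UMIs. Median depth was 23056 and 27762 UMIs per high-score cell in M9 and 24671 and 37114 in C6M9, 1.51 to 2.22 times that of remaining cells, and histone-high cells were deeper still at 38236 to 72301. Libraries shared 7 cell barcodes and 0 among high-score cells. Scrublet marked 0 to 0.327% of cells as doublets by its own threshold, so no cell was left out in the values given, and an alternative left out the 277 highest scores. Those highest scores made up 2.73 to 5.72% of high-score cells per library and 0.157 to 2.89% of remaining cells.

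The CD8 T cell label was checked with genes outside the score. After each cell was thinned to 5000 UMIs, Cd8b1, a CD8 co-receptor chain, was seen in 97.0 to 99.0% of high-score cells over the 4 libraries, Cd8a in 86.7 to 92.3% and Cd3e in 94.5 to 96.7%. Cd4 was seen in 0 to 2.22% (1.01 to 5.72% before thinning), against 0.762 to 1.35% of remaining cells. The 0 of 297 cells in C6M9 replicate 1 allows a share of cells with a Cd4 UMI at that depth of up to 1.01% and sets no limit on cells that express Cd4; 1.01% of them had a Cd4 UMI before thinning. Of the 878 cells 1 lacked both Cd8a and Cd8b1, and 0 lacked all 3 CD3 genes. The 14 CD8 T cell identity genes, all detected, summed to 9330 to 9896 CPM (UMIs per 1000000). The 13 myeloid and dendritic markers summed to 90.2 to 122 CPM, with Adgre1, Siglech, S100a8 and S100a9 at 0. Cst3 gave the most UMIs of that list, 873 and 259 in M9 and 754 and 676 in C6M9. The 8 NK and innate lymphoid markers summed to 122 and 116 CPM in M9 and to 70.0 and 73.7 in C6M9, with Ncr1, Klra8 and Klra4 among those at 0. Eomes, which CD8 T cells also express, made up 95.2 to 96.6% of their UMIs, and the other 7 summed to 4.10 and 5.62 CPM in M9 and to 2.39 and 2.92 in C6M9. The 15 B cell markers summed to 383 to 408 CPM, against 374 to 429 in remaining cells. Ighm gave the most UMIs of that list, 1939 and 886 in M9 and 2747 and 2640 in C6M9. Ms4a1, held low by the filter, was at 0 UMIs in 3 libraries and at 2 in C6M9 replicate 2. The 4 gamma delta T cell markers summed to 357 to 412 CPM, against 435 to 500 in remaining cells. Trdc gave the most UMIs of that list, 1144 to 3456 per library. A single M9 replicate 1 cell held 48 of that library's 56 H2-Aa UMIs in high-score cells and 161 of its 643 Cd74 UMIs.

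Mitotic genes outside the score were seen in different shares of the high-score cells, and these shares depend on depth. Birc5, which encodes survivin of the chromosomal passenger complex, was seen at 5000 UMIs in 70.0 to 75.8% of high-score and 1.86 to 2.86% of remaining cells (92.1 to 96.7% of high-score cells before thinning). Ccnb1, the main mitotic cyclin, was seen in 23.3 to 31.0% and 1.05 to 2.17%, and Plk1, the Polo-like kinase of mitotic entry, in 9.12 to 21.1% and 0.0794 to 0.621%. Before thinning, Ccnb1 was seen in 55.9 to 70.5% of high-score and 3.57 to 8.40% of remaining cells. Plk1 was then seen in 33.7 to 48.1% and 0.564 to 1.84%. The shares that follow are again at 5000 UMIs. Histone-high cells, which the rule leaves out, carried these genes about as often or more often: Birc5 was seen in 73.2 to 76.0% and Ccnb1 in 22.1 to 30.6% of them. Plk1 was seen in 26.1 to 27.4% of them and Aurka, the Aurora A kinase gene, in 12.7 to 17.8%, against 4.05 to 9.34% of high-score cells. Top2a, the topoisomerase that untangles chromosomes, was seen in 79.8 to 85.9% of histone-high and 24.0 to 34.0% of high-score cells. These 3 genes were thus seen more often in the cells that the histone filter removed than in those it kept, and the members are called by their score and not by a phase.

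Levels of genes outside the score also differed along it. The 878 cells were put by score in 4 bins (Q1 to Q4, of 220, 220, 219 and 219 cells), and the UMIs of each bin were summed. Ccnb1 was at 14.8, 44.4, 103 and 213 CPM from the lowest bin to the highest, against 3.35 in cells of score 0 and 71.9 in histone-high cells. Plk1 was at 4.50, 11.3, 41.8 and 91.9, against 0.633 and 65.6. Aurka was at 2.25, 4.66, 18.4 and 42.5, against 1.08 and 37.7. The lowest bin was thus above cells of score 0 for all 3 genes in the pooled sums, by far less than the highest bin. In M9 replicate 2 it was not: Ccnb1 was at 4.52 CPM in the lowest bin against 5.09 at score 0, and Plk1 and Aurka were at 0 against 1.11 each. Birc5 was already at 133 CPM in the lowest bin and reached 708 in the highest, and Mki67, the proliferation antigen Ki-67, went from 147 to 828. Replication genes took another course: Pcna, the sliding clamp, was at 178, 213, 205 and 112 CPM, and Mcm6, a helicase subunit, at 104, 131, 141 and 73.0. Both were highest in histone-high cells, at 506 and 248. These are pooled sums of cells that differ in depth, with bin medians of 23407.5, 29608, 31916 and 24888 UMIs, and carry no test.

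**Figure D2:**
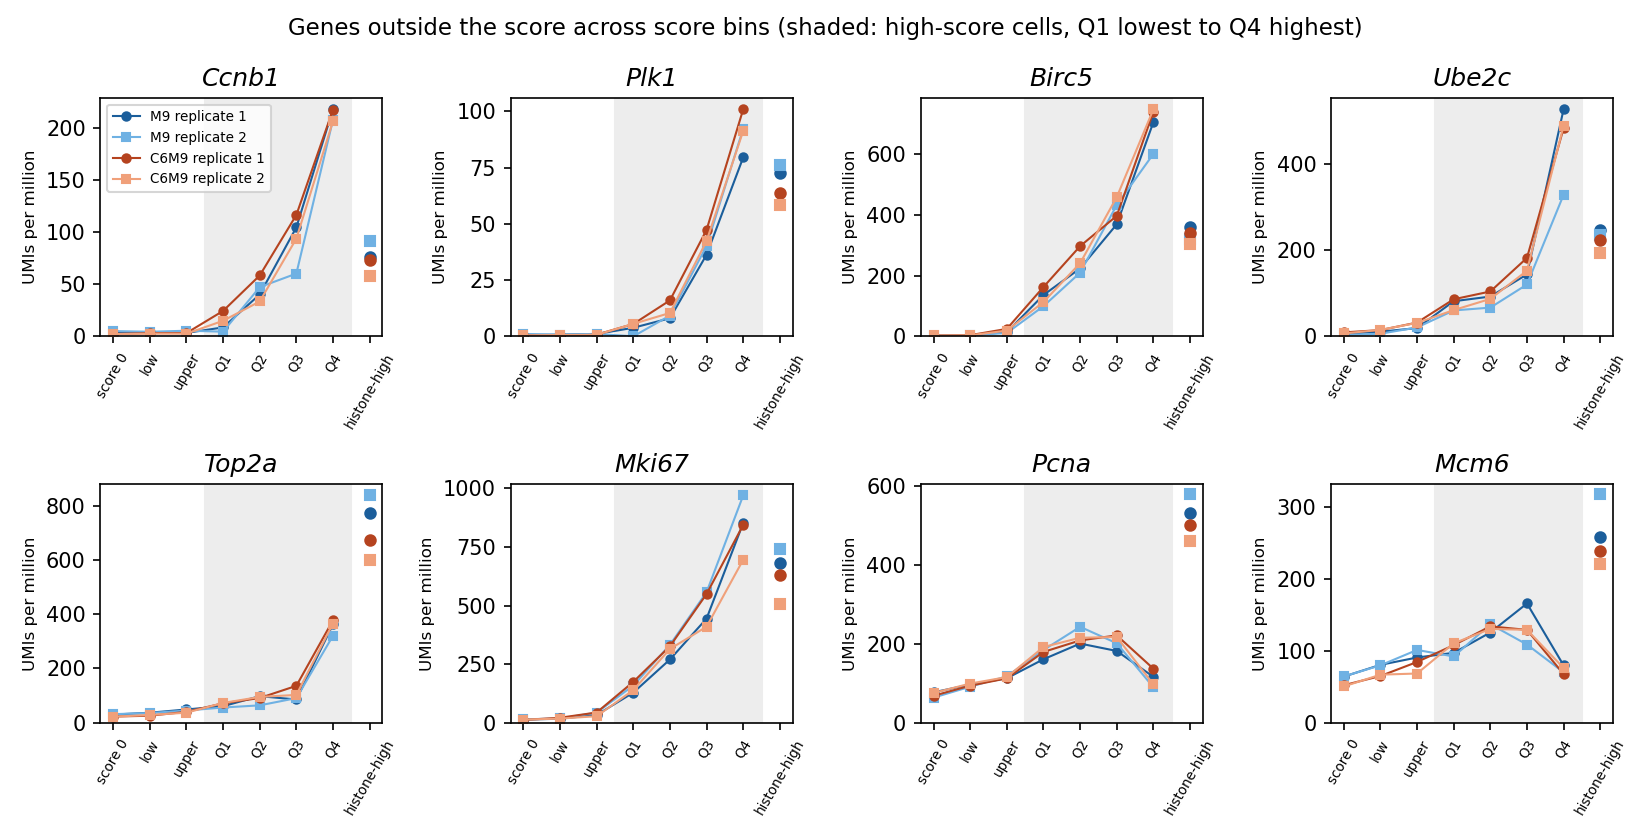
Level in UMIs per 1000000 (y axis, linear, from 0) of Ccnb1, Plk1, Birc5, Ube2c, Top2a, Mki67, Pcna and Mcm6 in cells grouped by score (x axis: score 0, the lower and upper part of remaining cells above 0, then Q1 to Q4), 1 line per library, with the 4 bins of high-score cells shaded and histone-high cells as separate points. Ccnb1, Plk1 and Birc5 are higher in each successive bin of the pooled high-score cells, while Pcna and Mcm6 are lower in the highest bin than in the third.

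The genes that set high-score cells most apart from remaining cells are given as a description, since the score chose them. Levels per library here and below are CPM with edgeR's TMM scaling, fitted within each class, while levels by score bin are plain CPM without it. Log2 ratios between classes, and counts of genes higher or lower, were taken from plain CPM with 1 added. A gene was counted if it reached 10 plain CPM in at least 1 sum of a library and class. Of 8019 genes with at least 10 CPM, 2744 (34.2%) were higher and 2914 (36.3%) lower in high-score cells in 4 of 4 libraries, with a median log2 ratio of -0.02. Hmmr of the score was at 109 and 135 CPM in M9 and 132 and 115 in C6M9, against 0.230 to 0.597 in remaining cells. Among genes outside the score, Birc5 stood at 324 and 343 CPM in M9 and 394 and 358 in C6M9, a mean log2 ratio of 5.46 ± 0.30 (SD over 4 libraries). Ccna2, the cyclin of S and G2 phase, was at 81.6 and 107 in M9 and 118 and 98.1 in C6M9 (5.45 ± 0.23), and Tpx2, an activator of Aurora A, at 109, 145, 118 and 108 (5.31 ± 0.27). In these genes the libraries of the 2 groups overlapped or lay close together, and each high-score value was many times that of the same library's remaining cells.

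The mitotic lists, which hold some score genes, followed the score to different degrees. All 16 measured mitotic kinase and passenger genes were higher in 4 of 4 libraries (median log2 ratio 3.80), as were 16 of 17 cyclin-CDK1 genes (2.65), 27 of 30 kinetochore and centromere genes (2.62) and 22 of 23 spindle motor and microtubule genes (3.40). The 9 tubulin genes were all higher (1.07), and the 21 genes of the anaphase-promoting complex and chromatid separation were 19 higher, with a median of only 0.39. S phase genes were higher in 50 of 51 (1.24), with Pclaf, a partner of the replication clamp, at 390 and 408 CPM in M9 and 510 and 422 in C6M9, against 19.7 to 32.6. Stmn1, which encodes the microtubule-destabilising protein stathmin, was at 724, 788, 771 and 764 CPM, against 60.4 to 73.3. Of the immune lists, 34 of 40 interferon stimulated genes were lower (median -0.45), as were 16 of 19 progenitor exhausted genes (-0.57). So were 21 of 30 genes induced by TCR signals (-0.46), beside 36.3% of 8019 genes. Of 21 effector and killer receptor genes, 6 were higher and 9 lower (-0.11). CPM is a share of all UMIs, and high-score cells had 1.51 to 2.22 times the median UMIs of remaining cells. A lower CPM, here and in the genes below, is therefore not in itself less transcript per cell.

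The genes furthest below remaining cells were Ccl5, Zbtb20, Malat1, Slfn5, Itpr2, Hcst, Bcl2, Btg1, Ypel3 and the predicted gene Gm30054. Ccl5, a chemokine gene of memory and effector cells, was at 48.4 and 18.5 CPM in M9 and 114 and 86.5 in C6M9, against 137, 225, 509 and 323 in remaining cells. Bcl2, the survival gene, was at 35.6, 30.1, 28.3 and 37.9, against 70.7 to 77.4, and Btg1, an antiproliferative gene, at 364, 376, 310 and 435, against 673 to 826. Tcf7, which encodes TCF1, was not among them: it stood at 494 and 523 CPM in M9 and 536 and 592 in C6M9, a mean log2 ratio of 0.00 ± 0.04. Its partner marker Slamf6 was lower in 4 of 4 libraries, by a mean log2 ratio of -0.58 ± 0.21.

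The contrast with histone-high cells is also a description. The filter required fewer than 5 Hist1h1b UMIs of high-score cells, and histone-high cells had at least 5. That choice itself sets S phase genes apart. Against histone-high cells, 55 of 55 S phase genes were lower in high-score cells in 4 of 4 libraries (median log2 ratio -1.31), beside 32.6% of 7950 genes. So were 28 of 33 kinetochore genes (-0.82) and 11 of 17 kinases and passengers (-0.94). In the other direction stood 33 of 39 interferon stimulated genes (0.50) and 15 of 21 naive and memory genes (0.40), beside 34.9% of all genes. Top2a was at 126, 148, 162 and 148 CPM in high-score cells and 613 to 814 in histone-high cells. Of the mitotic cyclins, Ccnb2 of the score was higher in high-score cells (0.97 ± 0.13) and Ccnb1 was as well (0.24 ± 0.20), while Plk1 (-0.94 ± 0.29) and Ccna2 (-0.59 ± 0.27) were lower, all in 4 of 4 libraries.

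The share of cells with a high score was compared between groups. Cells were thinned to 5000 UMIs, 11 to 48 shallower passing cells per library were left out, and the top 10% of the pooled thinned scores were taken. High-score cells were then 9.26% (95% exact interval 8.36 to 10.2) and 7.86% (6.31 to 9.65) of passing cells in M9, and 11.5% (10.3 to 12.9) and 11.03% (9.46 to 12.8) in C6M9. Both C6M9 libraries lay above both M9 libraries, by 2.71 points on average. The exact two-sided permutation test gave p = 0.33, the smallest that 2 against 2 libraries allow. Without thinning the shares were 7.76% and 9.38%, and 12.2% and 12.6%. Thinned to 2000 UMIs they overlapped, at 10.6% and 8.21% in M9 and 9.70% and 10.2% in C6M9. With the top 20% of thinned scores taken instead, M9 replicate 1 was highest at 25.3%, against 12.8, 17.0 and 16.4% in the others. The difference turned to -2.38 points. Thinned cells with few score gene UMIs often have equal scores, and ties at a limit were taken in library order, M9 replicate 1 first. The -2.38 points and the thinned shares therefore hold an effect of that order, whose size was not tested. Unthinned, the top 20% held 762 of 3827 and 187 of 1077 passing cells in M9. In C6M9 it held 506 of 2425 and 301 of 1453. With the granzyme and histone filters both lifted, at 5000 UMIs and the score limit of the thinned cells, the shares were 17.2% and 17.3% in M9 and 25.9% and 24.3% in C6M9. The intervals cover counting error only. The shares come from sorted cells, and the number loaded (16500 for each M9 library, 14900 and 11600 for C6M9) and the depth also differed between libraries.

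**Figure D3:**
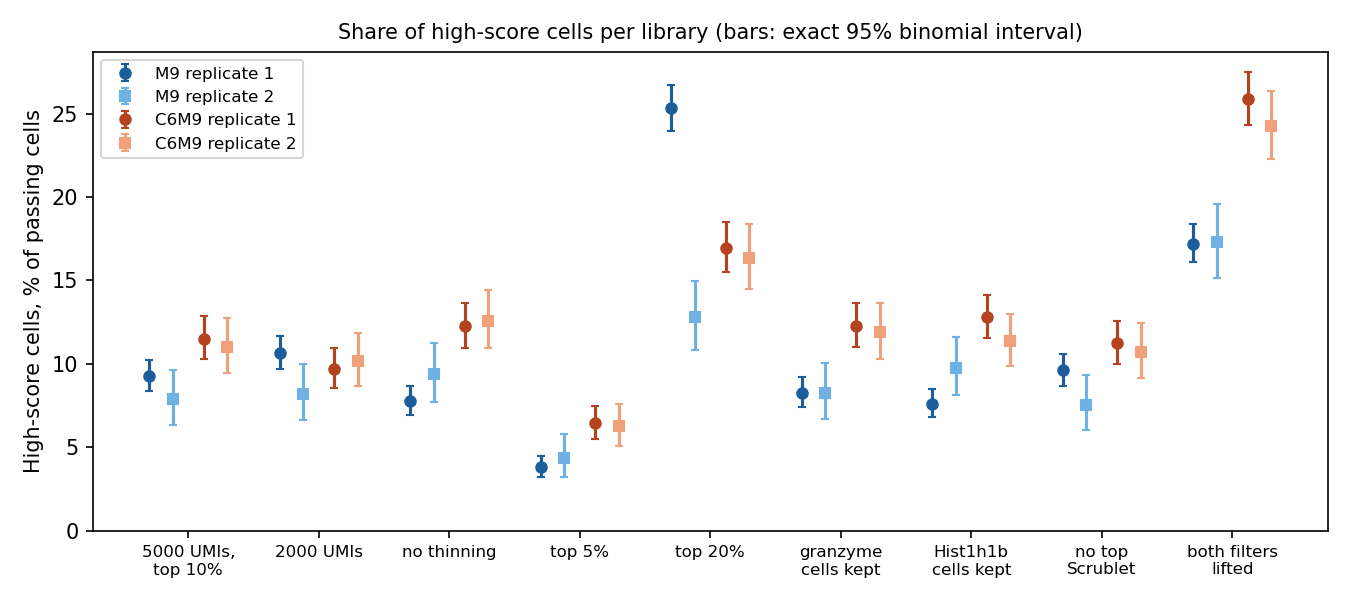
Share of passing cells with a high score (y axis, percent) in each of the 4 libraries under 9 settings (x axis), with 95% exact binomial intervals. The C6M9 points lie above the M9 points in most settings, overlap with them at 2000 UMIs, and lie below M9 replicate 1 when the top 20% are taken. In thinned settings, tied scores at the limit were taken in library order, M9 replicate 1 first.

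Within high-score cells, low and high affinity libraries were compared gene by gene on the summed UMIs. Genes of memory, TCR signal and exhaustion were among those that differed. Il7r, Plac8 and Klrd1 rose in C6M9, and Sox4, Izumo1r, Cd200, Tox and Lag3 fell. edgeR's quasi-likelihood test with Benjamini-Hochberg adjustment over 10824 genes called 7 higher (0.0647%) and 47 lower (0.434%) in C6M9 at an adjusted p under 0.05, 54 in all (0.499%). An unadjusted p under 0.05 was reached by 956 genes (8.83%). In all 54 the groups did not overlap, and neither did they in 2066 genes, called or not, with C6M9 above (19.1%) and 2200 with M9 above (20.3%). The p-values measure only the spread between these libraries. Each SE of a log2 difference is that difference, without its sign, divided by the square root of edgeR's F statistic. In summed cells, fewer cells with a transcript and less transcript per cell cannot be told apart.

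Of the genes that rose, Il7r, the interleukin 7 receptor of naive and memory T cells, had the lowest adjusted p. It stood at 93.7 and 77.7 CPM in the M9 libraries and at 196 and 209 in the C6M9 libraries, a log2 difference of 1.23 ± 0.11 (SE; edgeR adjusted p = 0.00388). Each C6M9 value was over both M9 values with a wide gap. Plac8, a gene of memory and effector T cells, was at 65.3 and 104 in M9 and 181 and 210 in C6M9 (1.24 ± 0.18; edgeR adjusted p = 0.0213), and here the M9 libraries differed among themselves. Klrd1, which encodes CD94 of the NKG2 receptors, was at 211 and 157, and at 318 and 387 (0.92; edgeR adjusted p = 0.0264). The other 4 were Cxcr6, a chemokine receptor of tissue-homing T cells (20.01 and 15.5, against 32.4 and 35.7), Jaml, an adhesion molecule (74.1 and 87.8, against 138 and 128), Epsti1, an interferon stimulated gene (216 and 234, against 325 and 411), and Dnajc15, a mitochondrial co-chaperone gene (390 and 370, against 546 and 532). Their log2 differences were 0.90, 0.73, 0.71 and 0.50.

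Among the genes that fell, Sox4, a transcription factor gene of the SoxC family, was at 34.0 and 32.8 CPM in M9 and at 5.54 and 7.78 in C6M9. It fell by 2.33 ± 0.18 (SE) on the log2 scale, with an edgeR adjusted p of 0.00198. In M9 replicate 2, 19.4% of its 108 UMIs came from 1 cell, the highest such share among called genes in libraries with at least 100 UMIs. Tnfsf4, the OX40 ligand gene, was lower still in C6M9 but low in both groups, at 14.7 and 8.81 against 0.808 and 1.25 CPM. Izumo1r, which encodes folate receptor 4, was at 57.3 and 43.1 in M9 and 18.0 and 18.9 in C6M9 (-1.47 ± 0.16; edgeR adjusted p = 0.00761). Cd200, an inhibitory ligand gene, was at 93.8 and 54.7, against 30.0 and 24.3 (-1.49). Its M9 libraries lay further apart than those of Izumo1r, and neither gene overlapped between groups. Wnt10a (-1.64), Cd22 (-1.43), the adhesion gene Alcam (-1.24) and the Rab GTPase-activating protein gene Tbc1d4 (-1.16) also fell. Bcl2a1d (-0.89) and Bcl2a1b (-0.68) fell as well, but UMIs of these near-identical paralogs can be exchanged between them.

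Genes that mark a recent TCR signal were next. Tnfrsf9, which encodes the costimulatory receptor 4-1BB, was at 35.7 and 28.2 CPM in M9 and 15.6 and 13.8 in C6M9 (-1.15 ± 0.16; edgeR adjusted p = 0.0213). Cd83 was at 34.0 and 29.5, against 15.0 and 15.3 (-1.08). The early response transcription factors Egr2 (11.5 and 10.3, against 3.58 and 4.89), Egr3 (19.6 and 22.5, against 9.47 and 7.15) and Nr4a1 (20.3 and 16.1, against 5.54 and 9.16) fell too, near the threshold for Nr4a1 (edgeR adjusted p = 0.0487). With Tnfsf4 these made 6 of the 34 measured TCR induced genes that fell and 0 that rose, beside 0.434% lower and 0.0647% higher over all genes. By DESeq2 5 of the 34 fell, without Egr2. The list's median log2 difference was -0.45, beside 0.00 over 10800 genes. This and the other gene lists were chosen with earlier results of these data known.

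Exhaustion and progenitor genes split between those that passed and those that did not. Tox, the transcription factor that programs exhaustion, was at 103 and 111 CPM in M9 and 52.4 and 67.2 in C6M9 (-0.83 ± 0.13; edgeR adjusted p = 0.0253). The inhibitory receptor gene Lag3 was at 137 and 139, against 79.0 and 88.7 (-0.72 ± 0.10; edgeR adjusted p = 0.0213). Eomes, a T-box factor, was at 116 and 107, against 68.7 and 72.9 (-0.66), and Myb, a factor of progenitor cells, at 125 and 123, against 78.8 and 82.0 (-0.63). In all 4 the libraries of a group lay close together. Of 19 progenitor exhausted genes 6 fell (Cd200, Eomes, Myb, Tnfsf8, Izumo1r and Cd9) and 0 rose, with a median of -0.57. Of 16 inhibitory receptor and exhaustion genes 3 fell (Lag3, Tox and Ptger4) and Cxcr6 rose (median -0.60). Over all genes 0.434% were called lower and 0.0647% higher. Slamf6 was at 358 and 317 in M9 and 236 and 238 in C6M9 and missed the threshold (-0.51 ± 0.10; edgeR adjusted p = 0.0603). Tcf7 was at 494 and 523, against 536 and 592 (0.15 ± 0.09; edgeR adjusted p = 0.701). DESeq2 called 45 of the 54 genes and lost 9. It called Slamf6 (DESeq2 adjusted p = 0.00462). Those lost include Cd200, Plac8, Ptger4, Egr2 and Wnt10a, with DESeq2 adjusted p of 0.0822, 0.085, 0.0816, 0.122 and 0.237.

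**Figure D4:**
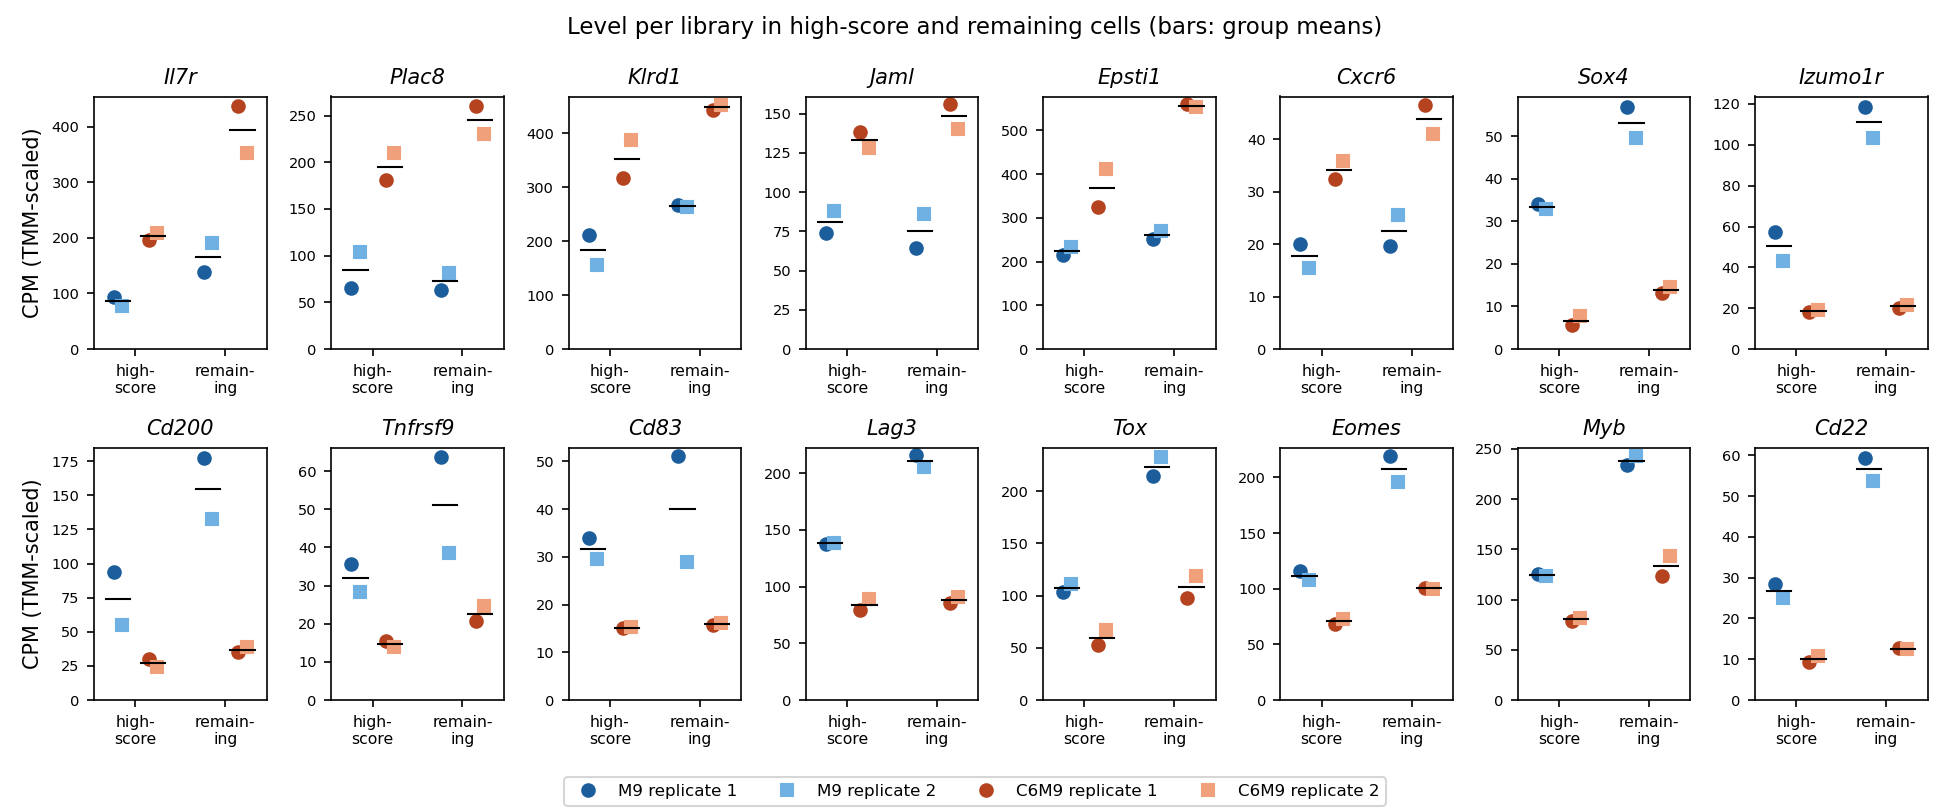
Level in TMM-scaled CPM (y axis, linear, from 0) of 16 genes in high-score and remaining cells of the 4 libraries, 1 point per library, with bars at the group means. In high-score cells the C6M9 points of Il7r, Plac8, Klrd1, Jaml, Epsti1 and Cxcr6 lie above both M9 points, and those of Sox4, Izumo1r, Cd200, Tnfrsf9, Cd83, Lag3, Tox, Eomes, Myb and Cd22 below them.

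Of the other immune lists, 2 of 22 naive and memory genes rose (Il7r and Plac8) and 0 fell, with a median of 0.30. These and the counts below stand beside 0.0647% of all genes called higher and 0.434% called lower. Ccl5 of that list was at 48.4 and 18.5 CPM in M9 and at 114 and 86.5 in C6M9 and did not pass (1.46 ± 0.29; edgeR adjusted p = 0.0726). Of 27 effector and killer receptor genes, Klrd1 rose, and Gzmk, a granzyme gene (21.6 and 15.2, against 7.51 and 5.14), was among those that fell. Of 42 interferon stimulated genes only Epsti1 passed, and 39 had a positive difference (median 0.32), beside 5424 of 10800 genes (median 0.00). Among markers of other cell types, Cd22 of 5 measured B cell genes and Eomes of 3 measured NK genes fell. Eomes made up nearly all of the summed NK list, as given above, so the lower sum in C6M9 is for the most part the Eomes difference itself.

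None of the measured genes of the 9 mitotic lists was called by edgeR or by DESeq2. With 0.499% of all genes called by edgeR, a count of 0 is near the background for lists of this size, here and in the S phase and other lists that follow, and is not a result about them. An edgeR unadjusted p under 0.05 was reached by 0 to 2 genes per list, for example by 2 of 18 cyclin-CDK1 genes, both positive. The median log2 differences of the lists ran from 0.00 (nuclear envelope and lamina, 13 genes) to 0.18 (cyclin-CDK1 switch, 18 genes). Ccnb1, Plk1, Birc5, Top2a and Mki67 were at log2 differences of 0.06, 0.19, 0.18, 0.18 and -0.11. With the granzyme and histone filters lifted, Ccnb1, Plk1, Birc5 and Top2a turned negative, at -0.17, -0.15, -0.00 and -0.23. None of 55 S phase genes was called by edgeR or DESeq2, although 50 had a positive difference (median 0.17) and 8 an edgeR unadjusted p under 0.05. Over all genes 5424 of 10800 had a positive difference, and 8.83% had an edgeR unadjusted p under 0.05. Nor did either tool call any of 25 p53 target and quiescence genes (median 0.07), 19 glycolysis genes (0.10) or 14 CD8 T cell identity genes (0.03), with 5, 2 and 1 at an unadjusted p under 0.05. Since cells were chosen by a mitotic score, these values do not measure how many cells divided.

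These calls depended on both C6M9 libraries. The 54 calls became 0 without C6M9 replicate 1 and 1 (Sox4) without C6M9 replicate 2, in fits where the lone C6M9 library was assumed to vary like the M9 pair, and 138 and 256 without M9 replicate 1 and 2. With the granzyme and histone filters lifted, an alternative chosen after seeing the data, Sox4, Tnfsf4 and Tiam1 were the 3 of the 54 still called, and Il7r was at 1.21 (edgeR adjusted p = 0.0516). None of the 54 genes changed direction in the 14 alternatives, 1 of them not being measured with the top 5% taken.

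The same comparison in remaining cells called 1047 of 12586 genes (8.32%; 405, or 3.22%, higher and 642, or 5.1%, lower in C6M9). In histone-high cells it called 70 of 11363 (0.616%; 28, or 0.246%, higher and 42, or 0.37%, lower). All 54 genes called in high-score cells were also called in remaining cells in the same direction, and 27 were in histone-high cells. Remaining cells summed to 20.5 to 51.4 M UMIs per library, against 3.21 to 8.80 M, so the counts of calls are not a measure of how much the classes differ. The level of Il7r in high-score cells also depended on the score: in the lowest bin it was at 107 and 85.9 CPM in M9 and at 257 and 262 in C6M9, in the highest at 74.2 and 106, and at 99.8 and 110. The groups lay apart in the 3 lower bins and overlapped in the highest, a difference that was not tested.

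Whether the difference between groups was itself different in high-score and remaining cells was then tested, in 1 edgeR model that held a term for each library, a term for each class and their interaction with group. Of 12002 genes, 42 (0.35%) had a higher and 38 (0.317%) a lower C6M9 minus M9 difference in high-score cells, 80 in all (0.667%), and 1023 (8.52%) had an unadjusted p under 0.05. Of the 54 genes above, 11 were among the 80. Hmgb3, a chromatin protein gene, was at 91.7 and 85.6 CPM in M9 and 88.1 and 74.1 in C6M9 in high-score cells, and at 28.8 and 22.5, against 12.9 and 11.04, in remaining cells. Its difference was -0.13 in the first class and -1.11 in the second (1.01 between them; edgeR adjusted p = 1.74e-06). Nrgn, which encodes a calmodulin-binding protein, was at 134 and 60.4, against 55.0 and 48.8, in high-score cells and at 78.2 and 54.8, against 15.0 and 15.6, in remaining cells (1.21; edgeR adjusted p = 1.52e-06). Izumo1r fell in both classes, less in high-score cells (-1.47 against -2.42; difference 0.96, edgeR adjusted p = 5.69e-05).

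Vim, the intermediate filament gene, and Crip1, a LIM domain protein gene, showed smaller differences in high-score cells. Vim was at 1286 and 1366 CPM in M9 and 1510 and 1538 in C6M9 (0.20), against 410 and 412, and 656 and 638, in remaining cells (0.66; difference -0.44, edgeR adjusted p = 7.24e-05). Crip1 differed by 0.29 in high-score and 0.70 in remaining cells (-0.39 between them). Fosb, an immediate early gene, was at 44.3 and 10.6 in M9 and 8.66 and 19.4 in C6M9, so the groups overlapped. Its difference between classes of -1.14 rested on M9 replicate 1, and without that library it was -0.72 (edgeR adjusted p = 0.313).

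Against histone-high cells the difference between groups differed for 25 genes upward (0.224%) and 2 downward (0.018%) of 11142 by edgeR, 27 in all (0.242%), and 868 (7.79%) had an unadjusted p under 0.05. DESeq2 called 1 gene, Smc2 (DESeq2 adjusted p = 0.0174), and edgeR with DESeq2's size factors called 5. Smc2, a condensin subunit gene, was at 121 and 122 CPM in M9 and 175 and 138 in C6M9 in high-score cells, and at 347 and 363, against 321 and 259, in histone-high cells (0.67 between classes; edgeR adjusted p = 0.00238). Top2a was at 126 and 148, against 162 and 148, in high-score cells (0.18) and at 771 and 814, against 686 and 613, in histone-high cells (-0.29). Its difference between classes was 0.49 (edgeR adjusted p = 0.0313). The spindle gene Nusap1, the ligase gene Lig1, the clamp partner Pclaf and the heterochromatin gene Cbx5 had class differences of 0.71, 0.57, 0.40 and 0.61. Histone-high cells are defined by a UMI count that moves with depth, and their median depth was 38236 and 60595 UMIs in M9 and 45238 and 72301 in C6M9. The part of that depth in these differences was not tested.

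**Figure D5:**
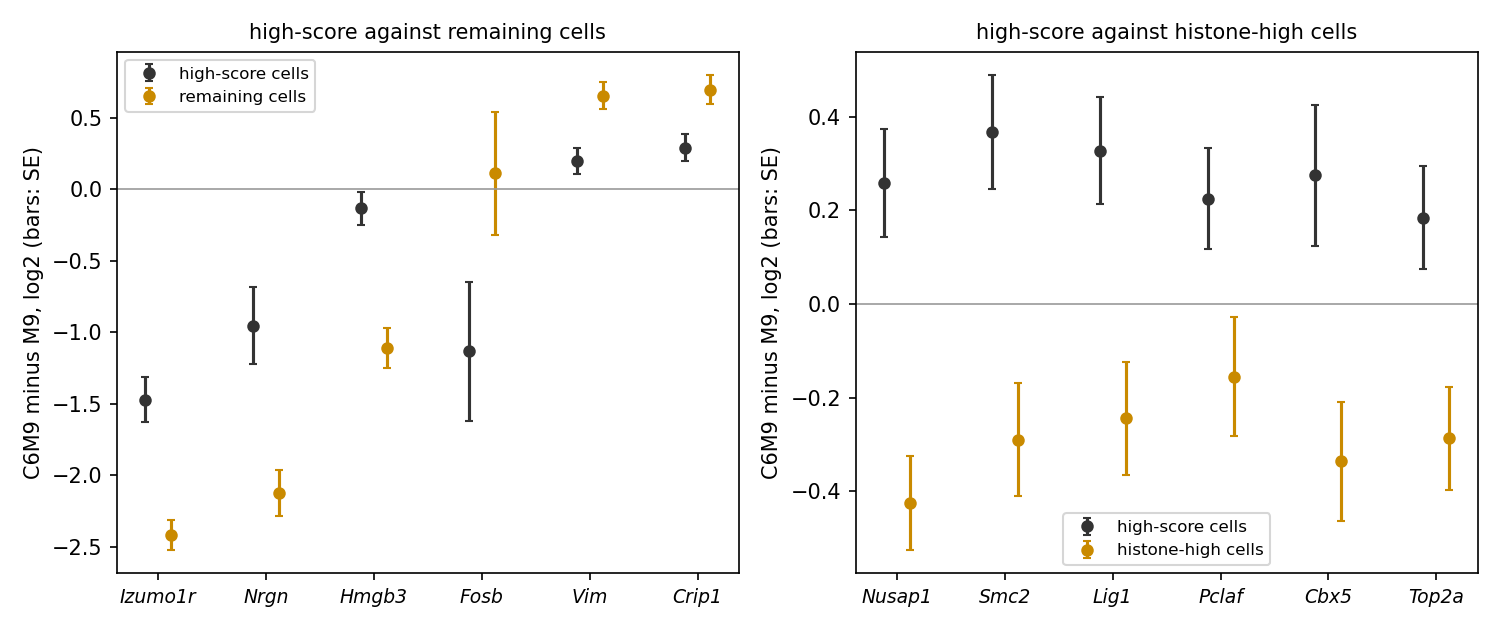
C6M9 minus M9 difference (y axis, log2, with SE bars derived from edgeR's F statistic) of 6 genes in high-score and remaining cells and of 6 genes in high-score and histone-high cells (x axis). High-score points lie above remaining ones for Izumo1r, Nrgn and Hmgb3 and below them for Fosb, Vim and Crip1, and above 0 for all 6 genes of the second panel, where histone-high points lie below 0.

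Genes were placed on GRCm38 with GENCODE M21. Of the protein-coding genes named above, Sox4 (ENSMUSG00000076431) lies on the minus strand at chr13:28948919-28953713, Klrd1 on the plus strand at chr6:129591782-129598775 and Cd200 on the minus strand at chr16:45382135-45409053.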

How the data were processed

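Messenger RNA of single cells was measured in 4 libraries, 2 of M9 and 2 of C6M9, grouped by their titles. What the authors deposited is, for each library, a matrix of raw UMI counts by gene and barcode. Cell Ranger 6.0.0 and mm10 are named in the submitters' processing notes, which give neither annotation release nor the handling of intronic reads. The files list barcodes kept as cells, so free RNA of empty droplets was not measured. The members and gene lists were chosen with earlier results of these data known.

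Cells were filtered and scored as given above (Python 3.11.15, numpy 2.4.6, scipy 1.17.1, pandas 2.3.3), and raw UMIs were summed per library and class. Sums were compared with edgeR 4.0.16 in R 4.3.3 (filterByExpr, TMM, quasi-likelihood test with trended dispersion, two-sided, Benjamini-Hochberg at 0.05 over all genes of a fit), after a check on simulated counts. Genes of the score, of the filters and of the mitochondrial genome stayed out of the counts of list genes called in a test, while counts of ratios between classes include them. Scrublet (scanpy 1.11.5) gave each cell a doublet score within its library, and the alternative without them left out the highest scores at 0.8% per 1000 barcodes. Named genes were the 12 largest called rises and falls with a mean of at least 20 CPM and no overlap, and for each list up to 4 with the smallest adjusted p and the most abundant. They were also the 6 smallest adjusted p of each class difference, the 20 highest and 10 lowest ratios to remaining cells, and a set of cycle and T cell genes; Gm and Rik names were left out of the first. Egr2, Nr4a1, Bcl2a1b, Cd9, Tnfsf8, Tiam1, Cd74 and the genes followed along the score were chosen after their values were seen. GENCODE M21 matched 32235 of 32285 features. Alternatives were DESeq2 1.42.0, its size factors in edgeR (RLE), no filter on low counts, a replicate block, each library left out, other score limits, a thinned score, doublets left out and, added after seeing the data, lifted gene filters.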

Additional observations from a re-analysis of the deposited data

Results flagged for a closer look

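The results here stand out because the difference between C6M9 and M9 was itself different in high-score cells and in another class, by edgeR's test of that difference. Against remaining cells 80 genes passed. Among them Izumo1r (0.96), Nrgn (1.21) and Hmgb3 (1.01) had a less negative C6M9 minus M9 difference in high-score cells, on the log2 scale. Vim (-0.44) and Crip1 (-0.39) had a less positive one. Fosb (-1.14) had a negative difference in high-score and a positive one in remaining cells, and it lost its call without M9 replicate 1.

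Against histone-high cells 27 genes passed. Nusap1 (0.71), Smc2 (0.67), Lig1 (0.57), Cbx5 (0.61), Top2a (0.49) and Pclaf (0.40) each had a positive difference in high-score and a negative one in histone-high cells. These 6 genes act in DNA replication, chromatin and the mitotic chromosome or spindle. Of them DESeq2 called only Smc2 (DESeq2 adjusted p = 0.0174), with the others at 0.584 to 0.963. No group had the 4 libraries needed to test for a library that stands apart.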

How the results depend on the processing

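The 54 calls in high-score cells became 276 with no filter on low counts, 0 and 170 with the top 5% and 20% taken, 137 with the top 10% of each library, 32 without the highest doublet scores and 3 with the gene filters lifted. Leaving out 1 library gave 0 to 256. DESeq2 gave 57 with 45 of the 54 among them, RLE scaling 70 with all 54, and a thinned score 53 with 44 of them. The 1047 calls in remaining cells became 1741 with no filter on low counts, and 625 to 2942 with 1 library left out. The 70 calls in histone-high cells became 138 with DESeq2, 609 with no filter and 132 to 668 with 1 library left out.

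The 80 genes that differed between high-score and remaining cells became 10 with DESeq2, 20 with the top 5% and 44 with a thinned score, and 71 to 131 with 1 library left out. The 27 against histone-high cells became 1 with DESeq2, 5 with RLE scaling, 84 with no filter, 0 and 132 with the top 5% and 20%, 212 with the top 10% of each library, 4 with a thinned score, 2 without the highest doublet scores and 1 to 382 with 1 library left out. The cause of these shifts was not tested. The share difference of 2.71 points was 0.51 to 7.84 elsewhere, and -2.38 with the top 20% of thinned scores. In thinned settings tied scores at the limit were taken from M9 replicate 1 first, so the order of libraries enters these values.

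Uncalled genes that changed sign were, with the filters lifted, Aurka (-0.14), Birc5 (-0.00299), Ube2c (-0.14), Top2a (-0.23), Ccna2 (-0.064), Ccnb1 (-0.17) and Plk1 (-0.15). With 1 library left out, Ccnb1 ran from -0.16 to 0.26 (-0.026 without M9 replicate 1 and -0.16 without C6M9 replicate 1), Plk1 from -0.074 to 0.41, Mki67 from -0.33 to 0.14 (0.061 without C6M9 replicate 2) and Cd8a from -0.043 to 0.12. Mki67 was also 0.15 with the top 20%, 0.25 with the top 10% of each library and 0.027 with a thinned score.

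With the replicate number as a block, 171 genes were called in high-score and 10 in histone-high cells. Nothing in the labels says that like numbers share a batch, and their deviations correlated at r = 0.0909 over 5253 genes in 2 pairs. With 2 libraries per group and 101 high-score cells in the smallest, small differences and low genes could not be resolved.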

Other observations

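Other groups of genes varied along the score within the high-score cells. Summed over their lists and from the lowest to the highest of the 4 score bins, interferon stimulated genes were at 4465, 4063, 3697 and 4342 CPM, against 5417 in cells of score 0. Genes induced by TCR signals were at 1380, 1257, 1218 and 1005, against 1784. Effector and killer receptor genes were at 6932, 6154, 6424.5 and 7781, against 5630, and glycolysis genes at 3182, 3721, 3982 and 3466, against 2047. Tcf7 was at 592, 557, 480 and 505, against 501, and Ccnd2, the D-type cyclin of early G1, at 211, 203, 171 and 144, against 342. These are plain CPM without TMM scaling, and the sums pool 4 libraries that contribute different numbers of cells to each bin.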
